A study of Mus musculus with 6 samples.

Results

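The genes examined here encode the DNA replication machinery: the origin recognition and licensing factors, the MCM helicase and its activators, the primase and polymerases, the sliding clamp and its loader, the proteins that protect and join the new strands, and the enzymes that supply deoxynucleotides. A list of 42 gene symbols was matched to the array, and a member was taken where a probe set carried exactly that symbol and no other. Of the 42, 39 were found among 20200 genes measured. Gins2, Rfc4 and Tyms had no probe set of their own and are described separately below.

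The cells were mouse epiblast stem cells (EpiSCs), pluripotent cells of the primed, post-implantation kind, grown on serum-coated plates in medium holding bFGF at 12 ng/ml and Activin at 20 ng/ml. In the Dicer -/- group, Dicer fx/fx EpiSCs received 0.3 µM 4-OH-tamoxifen for 3 days, followed by a 2-day interval free of the drug, with RNA collected on day 5. In the Dicer fx/fx group, cells of the same kind were plated and split in parallel with no tamoxifen. There were 3 experiments, numbered 18, 19 and 20, each with 1 Dicer -/- and 1 Dicer fx/fx sample, giving 6 Affymetrix mouse gene arrays. Tamoxifen exposure went with deletion in each experiment, and the numbers in the array names place all controls before all deleted samples, so these cannot be told apart from the genotype. The recombinase and its driver, the number of clones and the strain are not given in the sources used here. Each sample is a whole culture, in which fewer cells in S phase and less replication RNA per cell cannot be told apart.

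Replication starts at origins that are prepared in G1. The origin recognition complex (Orc1 to Orc6) binds DNA, and Cdc6 and Cdt1 then load the ring-shaped MCM helicase, a step that Geminin (Gmnn) blocks after S phase has begun. Cyclin-dependent and Cdc7 kinases activate the helicase together with Cdc45, the GINS complex and Mcm10. DNA polymerase alpha-primase lays down primers, and the delta and epsilon polymerases extend them while tethered to the clamp PCNA. Many of these genes are transcribed under E2F factors as cells pass from G1 into S phase. EpiSCs, like other early embryonic cells, divide fast with short gap phases.

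Mcm7 ties this machinery physically to the microRNA pathway, because its gene carries 3 microRNA hairpins, those of miR-25, miR-93 and miR-106b. Dicer cuts such hairpins into mature microRNAs, whereas the host mRNA does not need Dicer. Their main mature strands are shown because these are the products of a member gene that the deletion bears on. Sequences are from RefSeq, positions refer to GRCm38.p6 on the minus strand, and capitals mark the seed, bases 2 to 8.
miR-106b-5p (chr5:138165787-138165807): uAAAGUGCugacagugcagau
miR-93-5p (chr5:138165574-138165596): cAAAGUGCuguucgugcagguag
miR-25-3p (chr5:138165332-138165353): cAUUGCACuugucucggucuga
The miR-106b and miR-93 strands share 1 seed, and the miR-25 strand has another. Among the members Pold1 also carries a hairpin, that of Mir7053, whose strands are not shown.

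E2F recognition letters were then looked for in the promoters. RefSeq promoter windows of 300 bases, 250 before the start site and 50 after it, were at hand for 32 of the 39 members. Some genes, such as Lig1 and Mcm7, had windows at several start sites, and a match in any window counted for the gene. The E2F letters searched, on both strands, were TTTCCCGC, TTTCGCGC, TTTGGCGC and TTTGCCGC. They occurred in 15 of the 32 members (46.9%), against 3.44% of the 13394 genes measured here with a promoter and 2.60% of all 27025 genes in the table. The box CCAAT, bound by NF-Y, occurred in 22 of 32 (68.8%) against 41.9% of measured genes, and the cell-cycle element TTTGAA in 6 of 32 (18.8%) against 17.3%. A match is a description of letters, and no factor binding was measured. Bases -150 to -1 from the start site are shown for 4 members with E2F letters there, Mcm6, Gins3, Cdk2 and Rfc3, and bases -150 to -121 for Pola1. The first 3 were lower in Dicer -/- cells in experiment 20, and Rfc3 and Pola1 were higher. Capitals mark E2F and CCAAT matches on either strand, and in Mcm6 the first capital run is a pair of overlapping E2F matches. Builds are GRCm38.p6.
Mcm6 (chr1:128359706-128359855, minus strand): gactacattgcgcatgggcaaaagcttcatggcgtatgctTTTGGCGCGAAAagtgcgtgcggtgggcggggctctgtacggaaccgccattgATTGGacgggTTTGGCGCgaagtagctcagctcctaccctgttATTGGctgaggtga
Gins3 (chr8:95633409-95633558, plus strand): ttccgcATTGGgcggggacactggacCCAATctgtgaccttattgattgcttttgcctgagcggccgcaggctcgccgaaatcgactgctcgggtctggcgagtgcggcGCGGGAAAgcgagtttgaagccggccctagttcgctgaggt
Cdk2 (chr10:128705052-128705201, minus strand): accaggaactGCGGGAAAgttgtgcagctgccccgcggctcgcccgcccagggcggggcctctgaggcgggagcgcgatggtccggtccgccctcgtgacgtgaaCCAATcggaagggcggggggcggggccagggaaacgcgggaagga
Rfc3 (chr5:151651209-151651358, minus strand): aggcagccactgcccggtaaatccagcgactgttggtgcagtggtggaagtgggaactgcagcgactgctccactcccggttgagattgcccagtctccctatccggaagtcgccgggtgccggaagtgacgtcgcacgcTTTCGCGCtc
Pola1 (chrX:93632276-93632305, minus strand): ggtcatcacaggGCGCCAAAtgcactcccg

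Array values below are linear intensities as deposited, and differences are log2 intensity of Dicer -/- minus Dicer fx/fx, with the SE of a limma fit on 3 arrays per group. A gene was called changed at an adjusted p under 0.05 over all 20200 genes. The median intensity of the 6 arrays lay between 247.7 and 260.1, and all 39 members lay at or above the median level of the genes measured. The deleted gene itself was checked first. Dicer1 had intensities of 601.6, 553.1 and 645.4 in Dicer -/- cells of experiments 18, 19 and 20, against 1836, 2079 and 2098 in Dicer fx/fx cells. The groups were far apart, and Dicer1 fell by 1.74 ± 0.09 (adjusted p = 0.0452, limma). With the experiment as a block its adjusted p was 0.0664, and with any 1 array left out 0 genes passed the threshold. Genes of the primed epiblast marker list were present in both groups. Pou5f1, which encodes Oct4, had 7636, 6799 and 6268 in Dicer -/- cells and 7332, 6348 and 7477 in Dicer fx/fx cells. Fgf5 had 2358, 3372 and 3572 in Dicer -/- cells and 1556, 3884 and 5132 in Dicer fx/fx cells.

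No replication gene passed the threshold. Without the block, limma called 0 members, beside 0% of all genes higher and 0.00495% lower, which was Dicer1 alone. With the experiment as a block it called 0 members, beside 0% of all genes in either direction. At an unadjusted p under 0.05 there was 1 member without the block, Pola1, beside 6% of all genes, and there were 3 with it, Pola1, Rfc3 and Cdc7, beside 17.1%. The mean difference of 36 of the 39 members lay within 0.21 log2 of 0, and Pola1 was the one member whose mean difference was over 0.5. The median of the 39 mean differences was -0.05, against -0.04 over all genes and 0.00 over those at or above the median level. It turned to 0.08 without the control of experiment 20, to 0.06 without experiment 20, to 0.03 with array weights and to 0.01 without the Dicer -/- array of experiment 18. The median over all genes lay between -0.04 and -0.03 in those fits.

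Within experiments the picture was less even. In experiment 18, 14 of 39 members were lower in Dicer -/- than in Dicer fx/fx cells, where 55.2% of all genes and 44.8% of the genes that lay at or above the median level were lower. In experiment 19, 12 were lower, where those shares were 61.5% and 51.5%. In experiment 20, 34 were lower, where 57.4% of all genes were and 51.6% of the genes that lay at or above the median level. The members had median differences of 0.06, 0.08 and -0.22 in experiments 18, 19 and 20, while those of all genes were -0.02, -0.05 and -0.03. Taken 1 experiment at a time, most members were slightly higher without Dicer in experiments 18 and 19 and lower in experiment 20. Fewer, 15 of the 39, were higher in both of the first and lower in the last. Each experiment has 1 array per group, so differences between experiments have no replicate and were not tested.

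**Figure D1:**
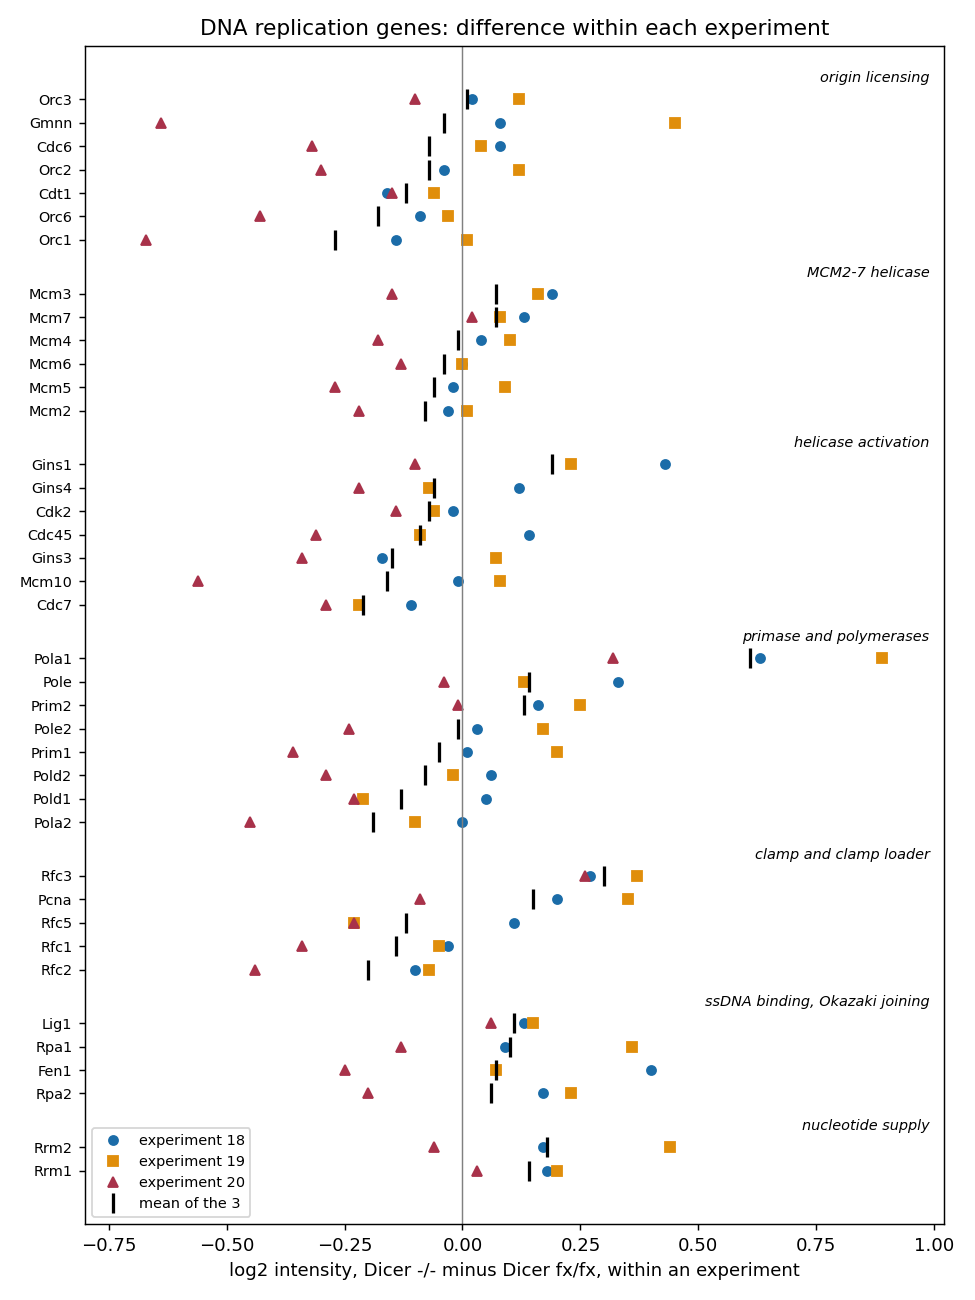
Log2 intensity of Dicer -/- minus Dicer fx/fx for the 39 members, grouped by role, with 1 point per experiment and a black mark for the mean of the 3. The triangles of experiment 20 lie left of 0 for 34 members, while in experiments 18 and 19 only 14 and 12 members lie left of it.

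Many members shared one sequence across the experiments. Of the 39, 20 were higher in both experiments 18 and 19, where 24.6% of all genes and 35.8% of those at or above the median level were. Of these, 15 were lower in experiment 20, a sequence shown by 9.4% of all genes and 12.4% of those at or above the median level. They include the clamp Pcna, the helicase subunits Mcm3 and Mcm4, both primase subunits (Prim1 and Prim2), Rpa1 and Rpa2, Fen1 and Rrm2. The catalytic and second subunits of polymerase epsilon (Pole and Pole2) are also among them. In experiment 20 some were lower by little, such as Prim2 at -0.01, Pole at -0.04 and Rrm2 at -0.06. The 5 members higher in experiment 20 were Mcm7, Pola1, Rfc3, Lig1 and Rrm1, and these were also the 5 that were higher in all 3 experiments, where 15.2% of all genes and 23.3% of those at or above the median level were. Another 7 were lower in all 3, namely Cdc7, Cdt1, Orc6, Pola2, Rfc1, Rfc2 and Cdk2, where 28.2% of all genes and 21.6% of those at or above the median level were. Without experiment 18 the count lower in every experiment was 12, where 39.1% of all genes and 31% of those at or above the median level were, and without experiment 19 it was 14, where 37.1% and 29.9% were. Read against the shares at that level, the counts of lower members are near the background.

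The control arrays also differed from each other. The median over members of the log2 value centred on each gene's own mean was -0.07, 0.07 and -0.01 in Dicer -/- cells of experiments 18, 19 and 20, against -0.14, -0.01 and 0.19 in Dicer fx/fx cells. The control of experiment 20 stood highest and the control of experiment 18 lowest, with the 3 deleted arrays between them. The control of experiment 20 was the highest of the 3 controls for 27 members, beside 35.8% of all genes and 43% of those at or above the median level. It was the highest of all 6 arrays for 21 members, beside 22.9% and 27.1%. The control of experiment 18 was the lowest of the controls for 30 members, beside 31.9% and 37.4%. Between the controls of experiments 20 and 18 the median member differed by 0.31, and between the deleted arrays of those experiments by 0.06, while over all genes both medians were -0.02.

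**Figure D2:**
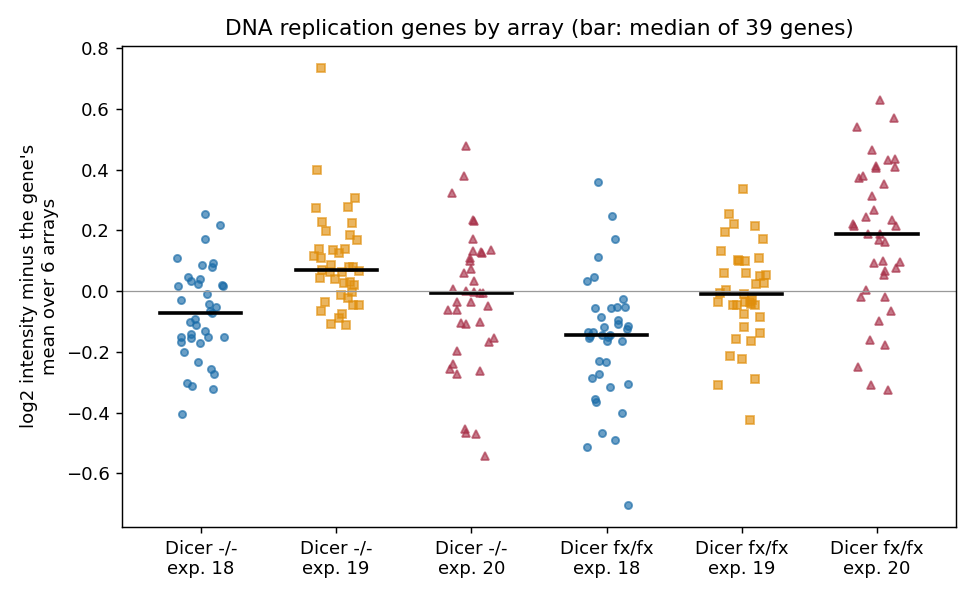
Log2 intensity minus the gene's mean over the 6 arrays, 1 point per member and 1 column per array, with a bar at the median of 39 genes. The medians of the Dicer -/- arrays lie at -0.07, 0.07 and -0.01 and those of the Dicer fx/fx arrays at -0.14, -0.01 and 0.19, so the control of experiment 20 stands above the other 5 arrays.

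Experiment 20 differed from the other 2 in lineage markers as well. The summed intensity of 8 primitive streak and mesoderm markers was 3123, 3746 and 17499 in Dicer -/- cells of experiments 18, 19 and 20, against 2630, 2677 and 18118 in Dicer fx/fx cells. That of 8 endoderm markers was 1554, 2426 and 7377 in Dicer -/- cells, against 1579, 2202 and 9543 in Dicer fx/fx cells. Both sums were high in both arrays of experiment 20, and none of these markers was at 0. T (Brachyury), a streak transcription factor, had 1012, 1200 and 11797 in Dicer -/- cells against 347.8, 271.1 and 7004 in Dicer fx/fx cells, and Mixl1, a homeobox gene of the streak, had 159.4, 281.1 and 1335 against 186.9, 215.7 and 3673. Eomes and Gsc were also high there in both groups, and these 4 carry the sum. Tbx6 had 436.6, 324.7 and 488.6 in Dicer -/- cells against 526.2, 383.2 and 295.7 in Dicer fx/fx cells. Hand1, a mesoderm factor, was nearly level, between 207.0 and 242.0 in all arrays, and Mesp1 lay between 92.74 and 115.6. In the endoderm list Sox17, Foxa2, Gata6 and Cxcr4 were high in both arrays of experiment 20 and carry the sum. Gata4 had 261.7, 366.4 and 311.1 in Dicer -/- cells against 310.4, 370.6 and 552.5 in Dicer fx/fx cells. Sox7, Afp and Ttr differed little between experiments, the highest of the 3 being Sox7 at 114.3 to 138.0. The 11 primed epiblast markers followed the replication genes in being lower in experiment 20, in 10 of 11, with a median of -0.27. Beside them stand 57.4% of all genes and 51.6% of those at or above the median level. Sox2 was the exception, at 0.16. In experiments 18 and 19, 2 and 4 of the 11 were lower. The summed intensity of the 11 was 47484, 51630 and 42764 in Dicer -/- cells against 43449, 48743 and 53813 in Dicer fx/fx cells. Naive pluripotency markers, 8 measured, summed to 7704, 8570 and 3321 in Dicer -/- cells against 6670, 9074 and 5776 in Dicer fx/fx cells. Nanog carried most of that sum, with 6222, 6811 and 1915 in Dicer -/- cells against 5106, 6963 and 4518 in Dicer fx/fx cells. In experiment 20 Klf2 had 575.3 against 390.4, and Klf4 differed by -0.04. Zfp42, Nr0b1, Dppa3, Esrrb and Tbx3 lay between 60.32 and 184.9 in all arrays, under the lowest array median of 247.7. The lower sum in experiment 20 is thus a value of Nanog and not of the list. The sum of 8 fibroblast markers was 1849, 1913 and 2126 in Dicer -/- cells and 1891, 2075 and 2100 in Dicer fx/fx cells. The part of this makeup in the replication values was not tested.

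All 7 origin licensing genes were lower in experiment 20, with a median of -0.32. Orc1, the largest subunit of the origin recognition complex and an ATPase, had intensities of 772.5, 808.6 and 690.8 in Dicer -/- cells against 848.4, 802.9 and 1101 in Dicer fx/fx cells. The groups met in experiment 19, and 1 control, that of experiment 20, was well above the other 5 arrays, giving a difference of -0.67 in that experiment and -0.27 ± 0.14 overall (adjusted p = 0.841, limma). Orc6, the smallest subunit, had 2309, 2418 and 2441 in Dicer -/- cells against 2454, 2468 and 3297 in Dicer fx/fx cells. All 3 deleted arrays were below all 3 controls, though by little outside experiment 20, with a mean difference of -0.18 ± 0.13 (adjusted p = 0.899). Such separation held for Orc6 and Rfc1 among the members, beside 9.93% of all genes.

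Gmnn, the licensing inhibitor, had 450.6, 451.3 and 415.0 in Dicer -/- cells against 427.6, 331.3 and 647.9 in Dicer fx/fx cells. The deleted arrays were nearly level while the controls spread widely around them, so the difference was 0.45 in experiment 19 and -0.64 in experiment 20, with a mean of -0.04 ± 0.24. A dimmer second probe set of Gmnn gave 249.1, 285.4 and 221.9 in Dicer -/- cells against 245.4, 214.9 and 243.2 in Dicer fx/fx cells, with the same signs. Cdt1, the licensing factor that Geminin binds, was lower in all 3 experiments, by -0.16, -0.06 and -0.15. The mean differences of Orc2, Orc3 and Cdc6 lay between -0.07 and 0.01.

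The 6 MCM2-7 helicase subunits, which form the ring that unwinds DNA, were among the steadiest members. Their mean differences lay between -0.08 and 0.07, and 5 of the 6 were lower in experiment 20. Mcm7, host of the hairpins whose strands are shown above, had 7227, 7822 and 6881 in Dicer -/- cells against 6604, 7416 and 6797 in Dicer fx/fx cells. It was higher in every experiment, but by no more than 0.13, and the groups overlapped (0.07 ± 0.08, adjusted p = 0.944, limma). A second probe set, shared with the neighbouring gene Ap4m1, differed by 0.17, 0.03 and 0.05. Mcm2 had 4157, 4846 and 4508 in Dicer -/- cells against 4242, 4799 and 5260 in Dicer fx/fx cells, a difference of -0.08 ± 0.11. The arrays of experiments 18 and 19 were level, and the gap lay in experiment 20.

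The array also carries a probe set for each of the microRNA precursors within Mcm7. That of Mir25 had 514.2, 435.8 and 837.7 in Dicer -/- cells against 516.8, 481.7 and 887.1 in Dicer fx/fx cells, and that of Mir93 had 248.7, 229.8 and 284.6 against 256.4, 217.5 and 331.3. That of Mir106b had 219.8, 244.9 and 241.7 in Dicer -/- cells against 225.1, 250.9 and 284.4 in Dicer fx/fx cells. The groups overlapped for all 3, with mean differences between -0.10 and -0.06. These probe sets do not report the mature strands printed above, which were not measured here.

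All 7 measured helicase activation genes were lower in experiment 20, with a median of -0.29. Mcm10, which joins the helicase to polymerase alpha, had 1536, 1831 and 1554 in Dicer -/- cells against 1545, 1736 and 2293 in Dicer fx/fx cells. Again the control of experiment 20 was alone at the top (-0.16 ± 0.17, adjusted p = 0.940). Gins1, a subunit of the GINS complex, had 1385, 1730 and 1142 in Dicer -/- cells against 1025, 1475 and 1223 in Dicer fx/fx cells. It was higher by 0.43 and 0.23 in experiments 18 and 19 and lower by 0.10 in experiment 20, and the groups overlapped (0.19 ± 0.20, adjusted p = 0.943). Cdc7, the kinase that phosphorylates the MCM ring, had 816.7, 634.1 and 500.2 in Dicer -/- cells against 879.1, 737.6 and 612.2 in Dicer fx/fx cells. Its level differed more between experiments than between groups, yet the deleted array was the lower in each experiment (-0.21 ± 0.22, adjusted p = 0.944, and 0.246 with the block). Gins3, Gins4, Cdc45 and the kinase gene Cdk2 had mean differences between -0.15 and -0.06.

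Pola1, the catalytic subunit of DNA polymerase alpha, which extends the RNA primers, was the member with the largest difference. Its intensities were 956.3, 1475 and 932.0 in Dicer -/- cells against 619.8, 794.6 and 744.7 in Dicer fx/fx cells. All 3 deleted arrays were above all 3 controls, which no other member showed and which 3.26% of all genes did. The mean difference was 0.61 ± 0.21, or 1.53-fold, with an unadjusted p of 0.0273 and an adjusted p of 0.832 (limma), and 0.159 with the block. Without experiment 20, whose difference was the smallest at 0.32, the fit with the block gave 0.76 and an adjusted p of 0.0189. The same fit gave 0.61 and 0.483 without experiment 18, and 0.47 and 0.440 without experiment 19. Over all fits that left out an array or an experiment the difference ranged from 0.40, without the Dicer -/- array of experiment 19, to 0.76. Without experiment 20 the blocked fit, on 4 arrays, called 1.56% of all genes higher and 0.366% lower, and Pola1 was the 1 member it called.

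The other subunits of polymerase alpha-primase had smaller differences than Pola1. Pola2, its accessory subunit, had 2206, 2643 and 2074 in Dicer -/- cells against 2208, 2839 and 2838 in Dicer fx/fx cells, a difference of -0.19 ± 0.14 (adjusted p = 0.911). It was level in experiment 18 and lower by 0.45 in experiment 20. Prim1, the catalytic primase subunit, had a mean difference of -0.05 ± 0.20, and Prim2, the large primase subunit, of 0.13 ± 0.24. Of the polymerases that extend the strands, the catalytic subunit of epsilon, Pole, differed by 0.14 ± 0.13 and that of delta, Pold1, by -0.13 ± 0.26. Pole2 and Pold2 had differences of -0.01 and -0.08. Except for Pola1, all genes of this group were lower in experiment 20, though Prim2 and Pole were nearly level there at -0.01 and -0.04.

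**Figure D3:**
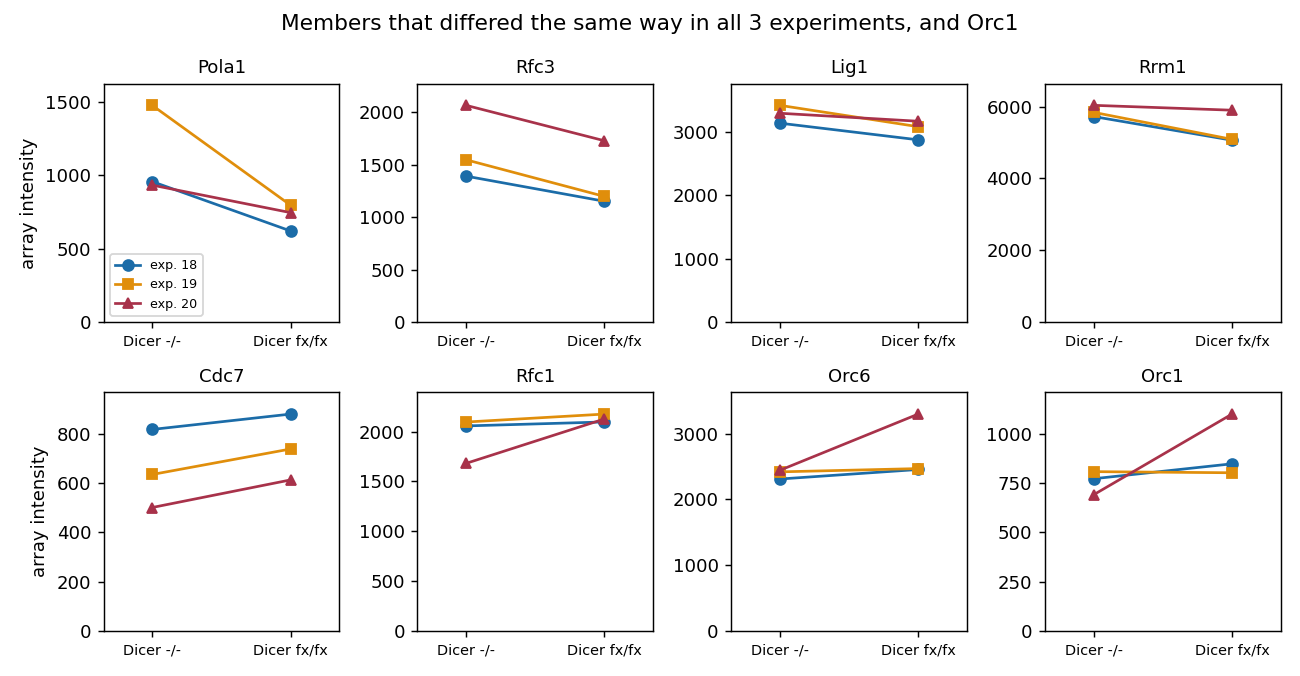
Array intensity of 8 members in Dicer -/- and Dicer fx/fx cells, from 0 on a linear axis, with a line joining the 2 arrays of an experiment. The lines of Pola1, Rfc3, Lig1 and Rrm1 descend to the controls in every experiment and those of Cdc7, Rfc1 and Orc6 ascend in every experiment, while for Orc1 the control of experiment 20 stands apart at 1101.

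Among the clamp and its loader, Rfc3, a small subunit of replication factor C, had 1392, 1548 and 2067 in Dicer -/- cells against 1152, 1198 and 1729 in Dicer fx/fx cells. The deleted array was higher in each experiment by a similar amount, 0.27, 0.37 and 0.26, while the level itself was highest in experiment 20 in both groups, so the groups overlapped (0.30 ± 0.22, adjusted p = 0.901, and 0.164 with the block). Rfc1, the large subunit, had 2056, 2095 and 1680 in Dicer -/- cells against 2096, 2175 and 2126 in Dicer fx/fx cells. The controls were nearly level and the deleted array of experiment 20 was alone at the bottom (-0.14 ± 0.10, adjusted p = 0.899). Rfc2 and Rfc5, the other small subunits measured, differed by -0.20 ± 0.17 and -0.12 ± 0.16. Within this single complex, 1 measured subunit was higher in all 3 experiments and 2 were lower in all 3.

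Pcna, the clamp, had 6438, 9161 and 8079 in Dicer -/- cells against 5602, 7180 and 8596 in Dicer fx/fx cells. It was higher by 0.20 and 0.35 in experiments 18 and 19 and lower by 0.09 in experiment 20 (0.15 ± 0.20, adjusted p = 0.958, limma). Its second probe set gave 0.18, 0.34 and -0.08.

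Of the single-strand binding and strand joining genes, all 4 were higher in experiments 18 and 19 and 3 were lower in experiment 20. Lig1, the ligase that seals Okazaki fragments, had 3136, 3417 and 3292 in Dicer -/- cells against 2873, 3080 and 3166 in Dicer fx/fx cells. It was higher in each experiment by a small amount, and the groups overlapped (0.11 ± 0.07, adjusted p = 0.871). A dimmer probe set that Lig1 shares with 6330408A02Rik differed by -0.02, -0.17 and 0.20. Rpa1, the large subunit of replication protein A, had 1796, 1937 and 2031 in Dicer -/- cells against 1686, 1514 and 2228 in Dicer fx/fx cells, a difference of 0.10 ± 0.15. Fen1, the flap nuclease, had 637.6, 803.0 and 1022 in Dicer -/- cells against 482.3, 765.9 and 1215 in Dicer fx/fx cells. In both groups it was lowest in experiment 18 and highest in experiment 20, with the wider range among controls, and the difference was 0.07 ± 0.37. A dimmer Fen1 probe set had 236.6, 195.4 and 236.2 in Dicer -/- cells against 232.1, 221.3 and 279.5 in Dicer fx/fx cells. Rpa2 differed by 0.06 ± 0.11.

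The ribonucleotide reductase genes make deoxynucleotides from ribonucleotides. Rrm1, the large subunit, had 5726, 5843 and 6038 in Dicer -/- cells against 5066, 5090 and 5902 in Dicer fx/fx cells. It was higher in each experiment, with groups that overlapped only through the control of experiment 20 (0.14 ± 0.08, adjusted p = 0.858). Rrm2, the small subunit that is made in S phase, had 3116, 4720 and 4880 in Dicer -/- cells against 2775, 3477 and 5072 in Dicer fx/fx cells. It ranged widely between experiments in both groups (0.18 ± 0.28, adjusted p = 0.973).

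The 3 unmatched members were read from shared probe sets, so their values may belong to the partner. Tyms, thymidylate synthase, shared a probe set with its pseudogene Tyms-ps, with 822.6, 1390 and 1988 in Dicer -/- cells against 726.4, 1044 and 1998 in Dicer fx/fx cells. These values resemble those of Rrm2 in being higher in experiments 18 and 19. In experiment 20 both were nearly level, at -0.01 for the Tyms probe set and -0.06 for Rrm2. Rfc4 shared one with Eif4a2, which differed by 0.04, -0.02 and 0.08 in the 3 experiments. Gins2 shared 2 probe sets with Gse1, which differed by -0.18, -0.24 and -0.16 and by 0.06, -0.01 and -0.32. No call is made from any of these.

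Members with and without E2F letters in the promoter window were set side by side. In experiment 20, 11 of 15 with them were lower, with a median of -0.15, and 16 of 17 without them were lower, with a median of -0.29. Those medians were 0.03 and 0.06 in experiment 18, and 0.08 and 0.07 in experiment 19. This split is a description and was not tested.

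Other genes around the replication fork, 32 measured of 38 listed, held no gene past the threshold in limma. Of them 0 had an unadjusted p under 0.05 without the block, or 2 with it, beside 6% and 17.1% of all genes. The 32 followed the members by experiment, with medians of 0.01, 0.09 and -0.17. In experiment 20, 26 of 32 were lower, beside 57.4% of all genes and 51.6% of those at or above the median level. Dscc1, a subunit of an alternative clamp loader, had the smallest p, at 0.32 ± 0.13 (adjusted p = 0.832, limma), with 203.9, 258.3 and 187.4 in Dicer -/- cells against 179.6, 175.7 and 160.8 in Dicer fx/fx cells. It was higher in each experiment. Top1, the topoisomerase that relaxes DNA ahead of the fork, came next at -0.16. Of the replication checkpoint genes, 10 measured of 12, 0 passed the test. An unadjusted p under 0.05 was reached by 0 without the block, or 2 with it, beside the same 6% and 17.1%. Rad1, of the 9-1-1 clamp, differed by -0.28 ± 0.12 and the kinase gene Wee1 by 0.17 ± 0.08. Hus1, of the same clamp, was higher by 0.85, 0.53 and 0.47 (0.62 ± 0.38, adjusted p = 0.861, limma, and 0.150 with the block).

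The genes that take cells into S phase and through mitosis were read alongside. Of 23 measured genes of G1 to S control, 0 passed the threshold and 1 had an unadjusted p under 0.05 without the block, or 5 with it. Over all genes the shares at that p were 6% and 17.1%. The medians of the 23 were 0.08, 0.16 and -0.03, and 7 were higher and 2 lower in all 3 experiments. Beside them stand 15.2% and 28.2% of all genes, and 23.3% and 21.6% of those at or above the median level. Ccnd3, cyclin D3, had 3951, 4422 and 4191 in Dicer -/- cells against 3200, 3829 and 3059 in Dicer fx/fx cells. The difference was 0.32 ± 0.11 (adjusted p = 0.825, limma). All deleted arrays were above all controls, as they were for 3.26% of all genes. E2f1, an activating E2F factor, was higher by 0.48, 0.43 and 0.22 (0.38 ± 0.28, adjusted p = 0.908, limma). E2f8, a repressing one, differed by -0.23, 0.03 and -0.73 (-0.31 ± 0.19, adjusted p = 0.876, limma). The remaining E2F genes showed no common direction. E2f2, E2f3, E2f5, E2f6 and E2f7 were mixed in sign across experiments, with mean differences between 0.00 and 0.23. E2f4 was lower in all 3 (-0.19 ± 0.15).

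Of 14 measured mitosis genes, 14 were lower in experiment 18, 13 in experiment 19 and 9 in experiment 20, beside 55.2%, 61.5% and 57.4% of all genes. The experiment 20 share of the mitosis genes was 64.3%, near that of all genes. In all 3 experiments 9 were lower, beside 28.2% of all genes and 21.6% of those at or above the median level. The medians were -0.11, -0.19 and -0.11. None passed the threshold in limma. An unadjusted p under 0.05 was reached by 1 without the block, or 5 with it, beside 6% and 17.1% of all genes. That 1 was Aurka, a mitotic kinase gene, with 3928, 3286 and 3377 in Dicer -/- cells against 4791, 4336 and 4067 in Dicer fx/fx cells (-0.32 ± 0.10, adjusted p = 0.825). Ccnb1, cyclin B1, differed by -0.15 ± 0.06. The control of experiment 20 was the highest control for none of the 14, whereas it was for 27 of the 39 replication genes. These lists were set side by side by counts alone.

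**Figure D4:**
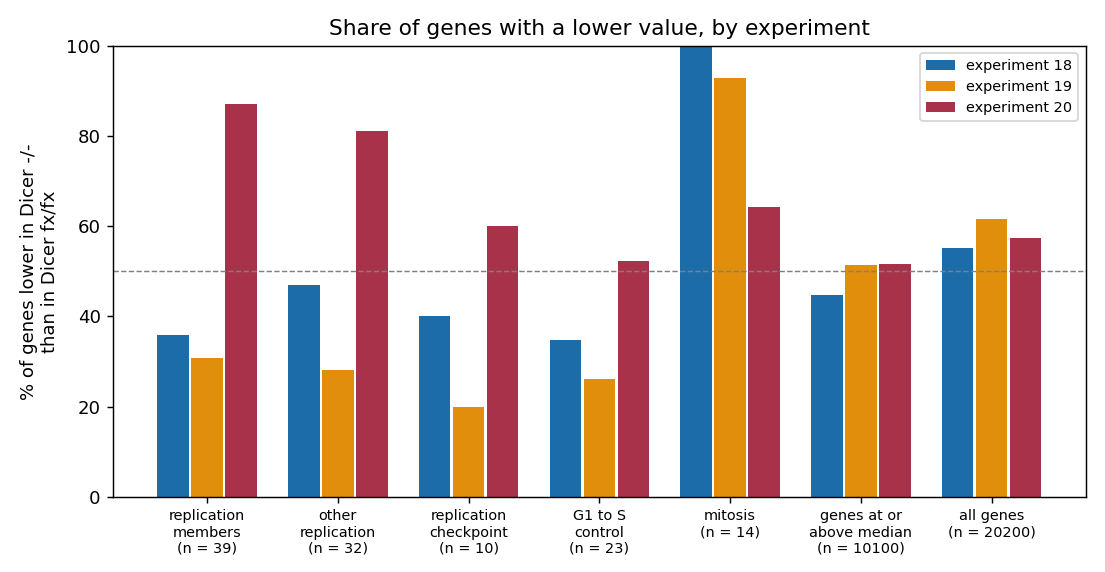
Percentage of genes in each list that were lower in Dicer -/- than in Dicer fx/fx cells, with 1 bar per experiment and a dashed line at 50%. Replication members (87.2%) and other replication genes (81.2%) stand above all genes (57.4%) in experiment 20 and below them in experiments 18 and 19. Mitosis genes stand above all genes in experiments 18 and 19 and near them (64.3%) in experiment 20. Genes at or above the median level stand at 44.8%, 51.5% and 51.6%, and in experiment 18 other replication genes (46.9%) are near that share.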

How the data were processed

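RNA from 6 EpiSC cultures was hybridised to 6 arrays. Per the submitters' processing notes, RMA and Affymetrix Expression Console 1.2 were used. The authors deposited linear intensity values, and log2 values centred on each probe set's median, which equal log2 intensity minus that median to within 2.31e-06. RMA makes arrays alike in overall level, so a general change in RNA content cannot be seen. Depth does not apply to arrays; their number limits the precision. Of 28856 probe sets, 22439 named 1 symbol, and the brightest per symbol gave 20200 genes. The 2815 naming several genes and 3602 naming none were left out. The test was limma's (version 3.58.1, R 4.3.3, lmFit then eBayes), with group as the only term, Benjamini-Hochberg adjustment and a threshold of 0.05; the script was tested on simulated data. The labels place a deleted and a control sample in each experiment, plated together, so experiment numbers pair them. Their deviations correlated across genes by 0.83, 0.61 and 0.80 in experiments 18, 19 and 20. Values given without mention of the block leave this pairing out, so their SE also holds the spread between experiments. With the block the SE was 0.06 rather than 0.22 for Rfc3, 0.13 rather than 0.37 for Fen1, and 0.14 in both fits for Orc1. The lowest adjusted p of a member was then 0.159 (limma). The members and lists were chosen with earlier results of these data known. Values in all 6 arrays were given by rule for the 2 members per role with the smallest unadjusted p, the 2 with the smallest in the blocked fit and the 3 whose controls spread most. Cdc7, Pcna, Dscc1, Ccnd3, Aurka, T, Mixl1, Tbx6, Nanog, Gata4, Fgf5, Hus1 and E2f1 were added after their values were seen. Alternatives were 23 other settings of filter, normalization, probe sets, variance, block and samples.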

Additional observations from a re-analysis of the deposited data

How the results depend on the processing

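The count of genes past the threshold, 1 in the fit with group alone, was 0 with the replicate block, with eBayes trend and robust settings, and with quantile normalization and the replicate block together (the last chosen after seeing the data). It ranged from 0 to 389 over fits that left out an array or an experiment, the 389 being the fit with the replicate block without experiment 20, in which Pola1 was called. The replicate block changed no call of a replication gene among all 6 arrays, and Dicer1 lost its call. Members lower in every experiment numbered 7, and 7 to 14 when an experiment was left out. Members higher in every experiment numbered 5, and up to 20, without experiment 20. Of 897 values of members under 23 alternatives, 826 kept direction and side of the threshold, 70 changed sign and 1 gained a call, and 16 members never changed sign. Array weights turned Cdc6 to 0.03, Gmnn to 0.19, Mcm4 to 0.05, Mcm5 to 0.03, Orc2 to 0.03, Pole2 to 0.10 and Prim1 to 0.08, and the mean of probe sets turned Fen1 to -0.03 and Gmnn to 0.03. Leaving out arrays or experiments gave these ranges for members that changed sign. Mcm3 ranged from -0.03 to 0.18, Mcm4 from -0.07 to 0.08, Mcm5 from -0.15 to 0.04, Mcm6 from -0.07 to 0.00 and Mcm10 from -0.29 to 0.03. Pcna ranged from -0.01 to 0.30, Gins3 from -0.30 to 0.10, Gins4 from -0.19 to 0.10, Cdc45 from -0.20 to 0.02 and Cdc6 from -0.24 to 0.07. Cdt1 ranged from -0.31 to 0.09, Gmnn from -0.28 to 0.26, Orc2 from -0.20 to 0.13, Orc3 from -0.04 to 0.07 and Prim1 from -0.18 to 0.17. Prim2 ranged from -0.07 to 0.32, Pold1 from -0.32 to 0.10, Pold2 from -0.20 to 0.13, Pole2 from -0.17 to 0.19 and Rpa1 from -0.02 to 0.26. Rpa2 ranged from -0.02 to 0.20, Fen1 from -0.26 to 0.41 and Rrm2 from -0.02 to 0.42. Among these members, the fit with the replicate block and without experiment 20 gave Mcm4 0.07, Mcm5 0.04, Mcm6 0.00, Mcm10 0.03, Gins4 0.02, Cdc45 0.02, Cdc6 0.06, Gmnn 0.26, Orc2 0.04, Prim1 0.11, Pold2 0.02 and Pole2 0.10. Without experiment 19, the blocked values of Orc3, Rpa1 and Rpa2 were -0.04, -0.02 and -0.02, and without experiment 18 that of Fen1 was -0.09. The members that kept their sign there also moved in size, Mcm2 from -0.16 to -0.01, Mcm7 from 0.03 to 0.12, Gins1 from 0.04 to 0.33, Cdc7 from -0.38 to -0.03, Orc1 from -0.40 to -0.06, Orc6 from -0.26 to -0.04, Pola1 from 0.40 to 0.76 and Pola2 from -0.31 to -0.05. Likewise, Pole ranged from 0.03 to 0.23, Rfc1 from -0.20 to -0.04, Rfc2 from -0.33 to -0.04, Rfc3 from 0.14 to 0.49, Rfc5 from -0.29 to -0.03, Lig1 from 0.07 to 0.14, Rrm1 from 0.10 to 0.21 and Cdk2 from -0.12 to -0.00. The median difference of the members turned to 0.08 without the control of experiment 20, to 0.06 without experiment 20, to 0.03 with array weights and to 0.01 without the Dicer -/- array of experiment 18. The causes were not tested.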
